A study of Mus musculus with 106 samples.

Results

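The 8 genes described here encode the creatine cycle: Gatm and Gamt (synthesis), Slc6a8 (uptake), Ckb and Ckm (cytosolic creatine kinases), Ckmt1 and Ckmt2 (mitochondrial creatine kinases) and Alpl (tissue-nonspecific alkaline phosphatase). They were chosen by symbol, and all 8 were found in each of the 4 count tables, which hold 21647 to 23420 genes. Their levels were measured by RNA-seq in 106 libraries from wild type male mice of strain C57BL/6 or C57BL/6J (labelled week 11 or 12 weeks old, with no other allele or agent). In the first experiment, 11 tissues were taken from mice kept at 10 °C for 2 weeks, after stepwise cooling through 18 °C and 14 °C (5 days each), and from controls kept at 22 °C. In the second, 5 tissues (brown fat, quadriceps, liver, ileum and whole brain without hypothalamus) were taken from mice kept at 34 °C for 4 weeks and from a separate set of 22 °C controls. Each group had 3 libraries, except bone marrow with 6 per temperature and spinal cord with 5. A library was made from RNA of 2 pooled mice in most tissues and from a single mouse in bone marrow, spinal cord and some brown fat libraries of the 34 °C experiment, so the spread in most tissues is a spread between pools. Whole tissues were used: fewer cells of a type and less RNA per cell cannot be told apart in any result below.

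Creatine is made in 2 steps. Glycine amidinotransferase (Gatm) joins arginine and glycine to guanidinoacetate, which guanidinoacetate methyltransferase (Gamt) methylates to creatine, and the transporter Slc6a8 brings creatine into cells. Creatine kinases move phosphate between ATP and creatine: Ckb in the cytosol of brain and many other cells, Ckm in skeletal muscle, Ckmt1 in mitochondria of brain and epithelia, and Ckmt2 in mitochondria of striated muscle. In brown and beige adipocytes, phosphocreatine made by creatine kinase can be hydrolysed without work being done, a futile cycle that releases heat, and Ckb and the phosphatase encoded by Alpl have been described as its enzymes. Bone-forming cells and neutrophils are other known sources of Alpl.

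The libraries held between 4262403 and 62880248 counts (median 17501041 in the 10 °C experiment and 41889787 in the 34 °C experiment). Levels are given as CPM, the counts relative to a library's total after TMM scaling within a tissue. The labelled tissues carried their defining markers: all 12 skeletal muscle genes in quadriceps, all 7 brown adipocyte genes in interscapular brown fat (iBAT), and all 6 hepatocyte genes in liver had a mean of at least 1 CPM. Some libraries stood apart. Brain 22 °C replicate 2 of the 10 °C experiment held a summed hepatocyte marker level of 65614 CPM against 733 to 1101 CPM in the other 5 brain libraries of that experiment. Perigonadal fat (pgVAT) 10 °C replicates 1 and 3 held 16557 and 20840 CPM of epididymis markers, against 2.88 CPM in replicate 2 and 604 to 2579 CPM in the 22 °C libraries. iBAT and inguinal fat (ingSAT) libraries differed in skeletal muscle markers, whose values stand beside the results they touch. Most results that rest on these libraries are given with and without them.

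In the GENCODE M21 annotation (GRCm38), the genes lie as follows: Gatm at chr2:122594467-122611303, Gamt at chr10:80258151-80261012, Slc6a8 at chrX:73673150-73682502, Ckb at chr12:111669361-111672338, Ckm at chr7:19404776-19422841, Ckmt1 at chr2:121357714-121363737, Ckmt2 at chr13:91853387-91876885 and Alpl at chr4:137741733-137796384. Reads were counted over their exons. Ckm, Ckmt1 and Ckmt2 each overlap a gene on the opposite strand, so some of their reads could come from it where counting was not strand-specific.

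The tissues differed widely in which creatine genes they expressed at 22 °C. Gatm was highest in spinal cord, at 338 ± 14.5 CPM (SD, n = 5), 3.39-fold above hypothalamus at 99.8 ± 2.97 CPM (n = 3). Without brain replicate 2, brain held 109 and 114 CPM and ranked next, above every hypothalamus library (96.4 to 102 CPM). Gatm was lowest in quadriceps and iBAT, with means of 3.47 and 3.38 CPM and overlapping libraries. Gamt was highest in liver, the main site of creatine synthesis, at 115 ± 6.15 CPM. Its next level, 41.9 CPM in brain, came from replicate 2 alone: that library had 91.1 CPM, and the other two had 14.9 and 19.7 CPM. Spinal cord thus carried most Gatm and liver most Gamt, and in liver Gatm was at 7.7 ± 1.94 CPM.

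Slc6a8 was highest in ileum, with 403 ± 51.2 CPM, followed by spinal cord with 183 ± 5.21 CPM and quadriceps with 148 ± 7.45 CPM, and these 3 tissues did not overlap. It was lowest in bone marrow, at 2.06 ± 0.54 CPM. iBAT held 49.6 ± 4.38 CPM, within the range of the brain libraries only through brain replicate 2, without which brain held 65.6 and 66.2 CPM, above every iBAT library.

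Among the kinases, Ckb was highest in spinal cord (1315 ± 118 CPM) and brain (1200 ± 476 CPM), which overlapped, then in hypothalamus (694 ± 65.9 CPM), and every other tissue had a mean of at most 54.9 CPM. Without brain replicate 2, brain held 1472 ± 92.8 CPM (n = 2) and ranked first. Ckm was highest in quadriceps, at 30796 ± 8595 CPM, with iBAT next at 1090 ± 327 CPM and ingSAT at 347 ± 135 CPM. Ckmt2 followed the same order, with 1592 ± 404 CPM in quadriceps, 91.9 ± 23.8 CPM in iBAT and 12.9 ± 7.18 CPM in ingSAT. Ckmt1 was highest in ileum, at 478 ± 6.12 CPM, followed by spinal cord at 397 ± 10.6 CPM, and no count of it was found in the 22 °C libraries of iBAT or bone marrow. Alpl had the flattest distribution: iBAT ranked first with 22.2 ± 9.1 CPM, but each neighbour overlapped the next down to quadriceps with 15.3 ± 2.03 CPM, and without iBAT replicate 3 liver ranked first. Ileum held least Alpl, 1.59 ± 0.26 CPM. Because the tissues sit in 4 tables made with different kits, orders across tissues are descriptions without a test.

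**Figure D1:**
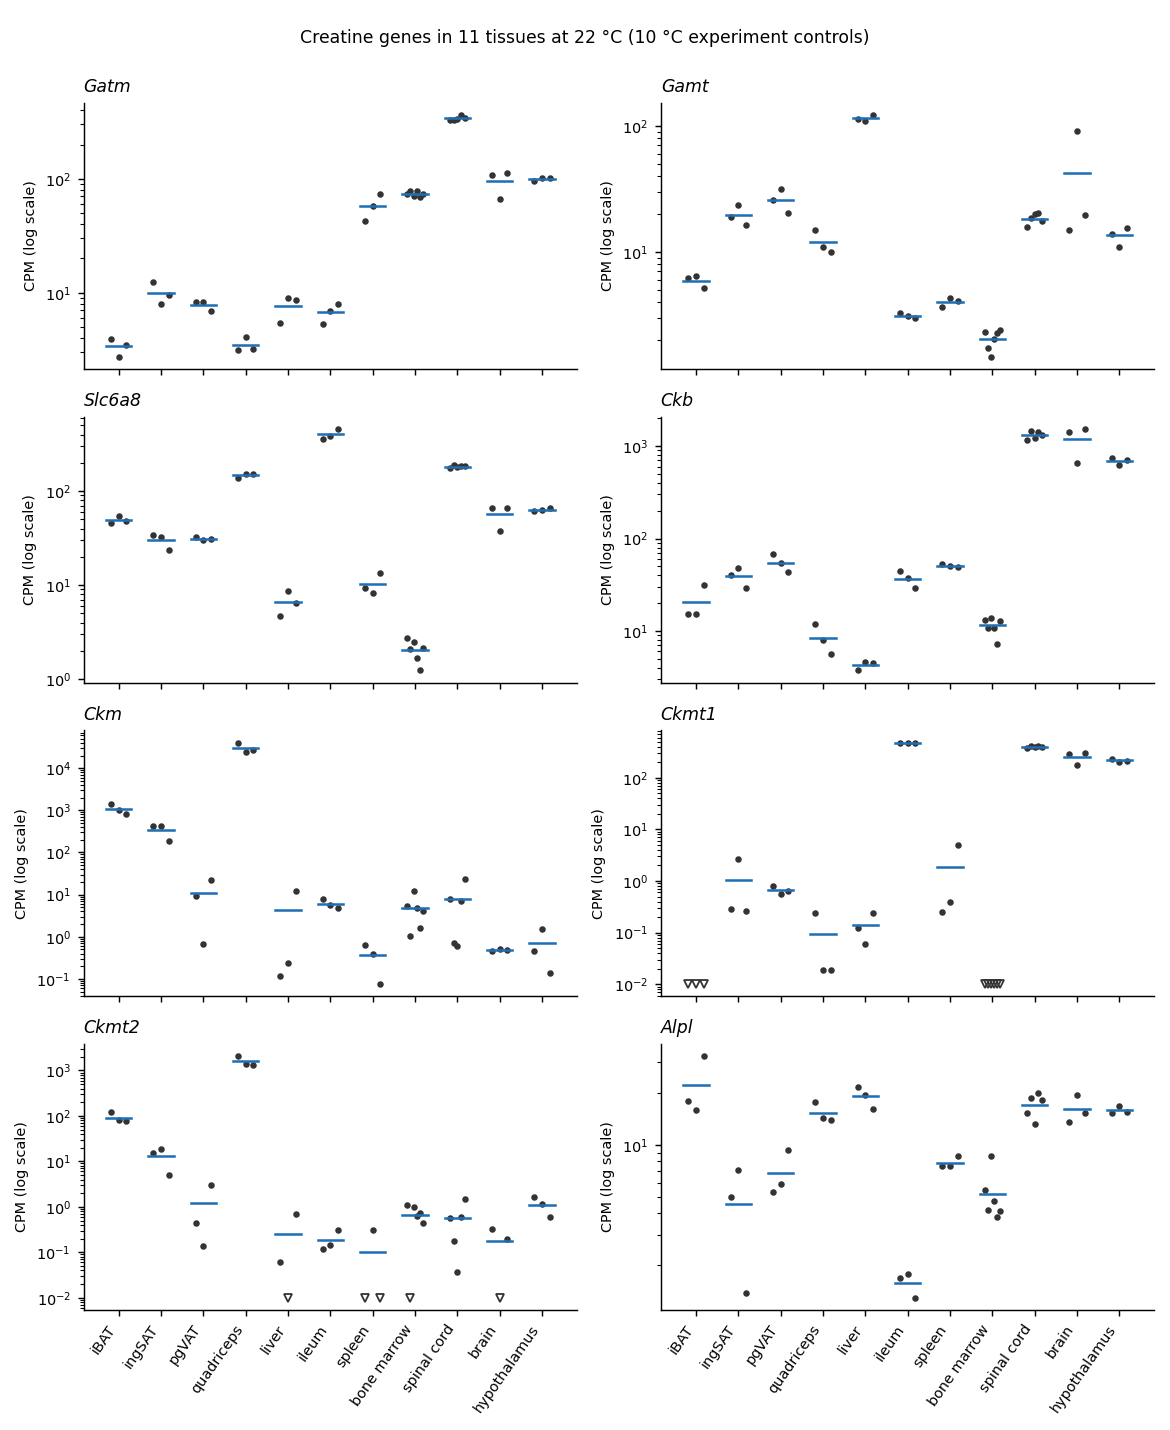
CPM (log scale) of the 8 creatine genes in the 22 °C libraries of the 10 °C experiment, by tissue; each dot is a library, blue lines are means and open triangles mark libraries with no count. Gatm peaks in spinal cord, Gamt in liver, Slc6a8 and Ckmt1 in ileum, and Ckm and Ckmt2 in quadriceps.

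To compare kinase genes with each other, CPM were divided by exon length in kilobases and expressed as a share of the 4 kinases in each library. Exon length was that of all annotated exons of a gene, merged: 2895 bases in 2 blocks for Ckb and 1486 bases in 10 blocks for Ckmt2. The shares therefore depend on the annotation. Ckb made up 73.1% of kinase CPM per kb in hypothalamus, 73.6% in spinal cord and 79.4% in brain at 22 °C, with Ckmt1 at 26.6%, 25.9% and 20.5%. Brain replicate 2 had 76.2% Ckb, and the other brain libraries had 80.5% and 81.6%. In spleen, Ckb made up 94.9%. In ileum, Ckmt1 made up 92.8% and Ckb 6.16%. Quadriceps was 90.7% Ckm and 9.25% Ckmt2, and iBAT had a similar composition, with 84.2% Ckm, 14% Ckmt2 and 1.79% Ckb. These iBAT libraries carried skeletal muscle transcripts. In the 22 °C libraries of the 34 °C experiment, Ckb made up 99.9% and 97.2% of the iBAT kinases in replicates 1 and 3, which had almost none, and 5.76% in replicate 2, which had many. The summed level of the 4 genes was 11646 CPM per kb in quadriceps, 443 in iBAT and 3.15 in liver.

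**Figure D2:**
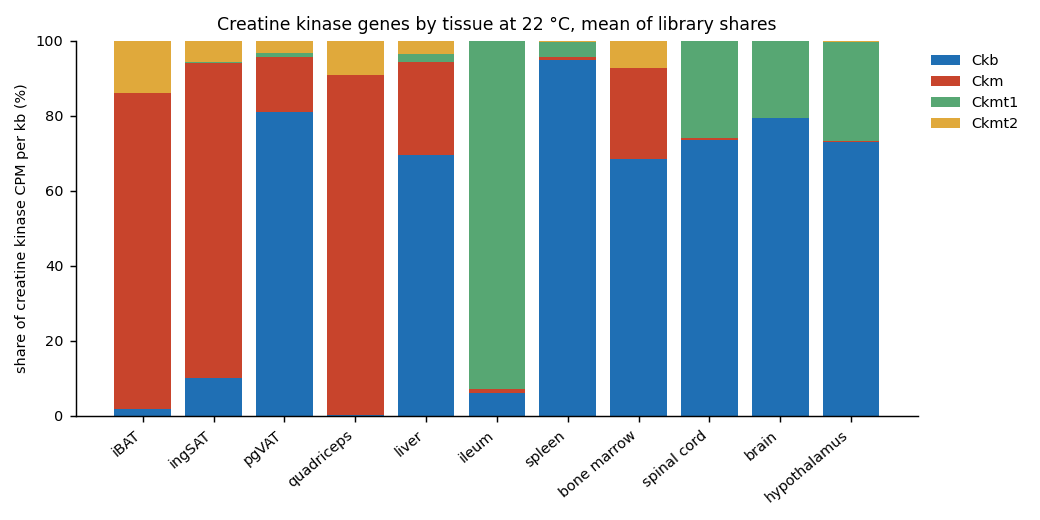
Mean share (%) of each creatine kinase gene in the summed CPM per kb of the 4 kinase genes, in the 22 °C libraries of the 10 °C experiment, by tissue. Ckb fills most of the bar in the nervous system and spleen, Ckmt1 in ileum, and Ckm in quadriceps, iBAT and ingSAT.

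The genes whose tissue means were most like each member at 22 °C were ranked by Pearson correlation of log2(CPM + 1) over the 11 tissues, among 13889 genes, as a description. The 11 points share tables, kits and depth. Gatm was most like Cnp, a myelin enzyme, Pcyt1b and the potassium channel gene Kcnj10 (r = 0.983, 0.978 and 0.977), all 3 highest in spinal cord. Gamt was most like Aldh7a1, Rmdn2 and the glycine decarboxylase gene Gldc (r = 0.962, 0.9504 and 0.927), all highest in liver. Slc6a8 was most like Mpi, Cystm1 and Myh14 (r = 0.934, 0.915 and 0.906), all highest in ileum. Ckb was most like Cttnbp2, the glial membrane protein gene Gpm6b and Tcf25 (r = 0.983 to 0.985). Ckm was most like skeletal actin Acta1, Myoz1 and fast troponin Tnnt3 (r = 0.981 to 0.986), and Ckmt2 was most like myoglobin, Mb, with Art1 and myotilin, Myot (r = 0.995 for each). Ckmt1 was most like Dab1, Chrm2 and Wnt3 (r = 0.988 to 0.991). Alpl had lower values, with St6galnac6, Grsf1 and Slc25a33 (r = 0.941, 0.889 and 0.886).

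The study asked how each tissue adjusts its transcriptome to cold and to warmth. Few creatine genes passed the test, and those that did were in iBAT and bone marrow. A call was made at a Benjamini-Hochberg adjusted p under 0.05 in edgeR's quasi-likelihood test, adjusted over all genes tested in that tissue. At 10 °C, 6 of the 75 gene and tissue pairs that passed the filter on low counts were called, of 88 pairs in all. In iBAT 4 of 7 tested members were called, where 11.3% of all genes were. Of these, 2 were higher (6.22% of all genes) and 2 lower (5.07%). In bone marrow 2 of 6 were called, where 19% of all genes were, both higher (7.33% of all genes). None of 62 pairs was called in the other 9 tissues, where 12 had an unadjusted p under 0.05 and DESeq2 called 3. The share of all genes called there was 7.51% in ingSAT, 0.0779% in spleen, 0.0639% in ileum, 0.0253% in quadriceps, 0.00695% in spinal cord, and 0% in pgVAT, liver, brain and hypothalamus. At 34 °C, 4 of 31 tested pairs of 40 were called, all in iBAT, where 28.9% of all genes were called. Of these, 3 were higher (13.5% of all genes) and 1 lower (15.4%). None of 24 pairs was called in the other 4 tissues, where 3 had an unadjusted p under 0.05 and DESeq2 called 1, and where the share of all genes called was 0.385% in liver and 0% in quadriceps, ileum and brain.

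With the limits the study used, an unadjusted p of at most 0.05 and more than 1.5-fold, 13 pairs were called at 10 °C. These were 5 of 7 members in iBAT (13.2% of all genes), 3 of 8 in ingSAT (16.3%), 3 of 7 in pgVAT (7.94%), 1 of 7 in quadriceps (3.83%) and 1 of 7 in ileum (2.71%). At 34 °C these limits called 3 of 7 members in iBAT, against 19.4% of all genes. The median log2 fold change of the members tested in iBAT was -0.49 at 10 °C and 0.36 at 34 °C, beside -0.02 and 0.02 for all genes tested. These medians are the values of Gatm at 10 °C and of Ckm at 34 °C, neither of them called. Members moved both ways at each temperature, so the medians describe no shared direction. The split of calls over all iBAT genes depended on scaling: 796 were higher and 649 lower at 10 °C, against 489 and 1443 with library size alone, and 1661 were higher and 1900 lower at 34 °C, against 4223 and 686. Library size alone moved the median of all genes to -0.18 and 0.30, and no called member changed sign under it.

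**Figure D3:**
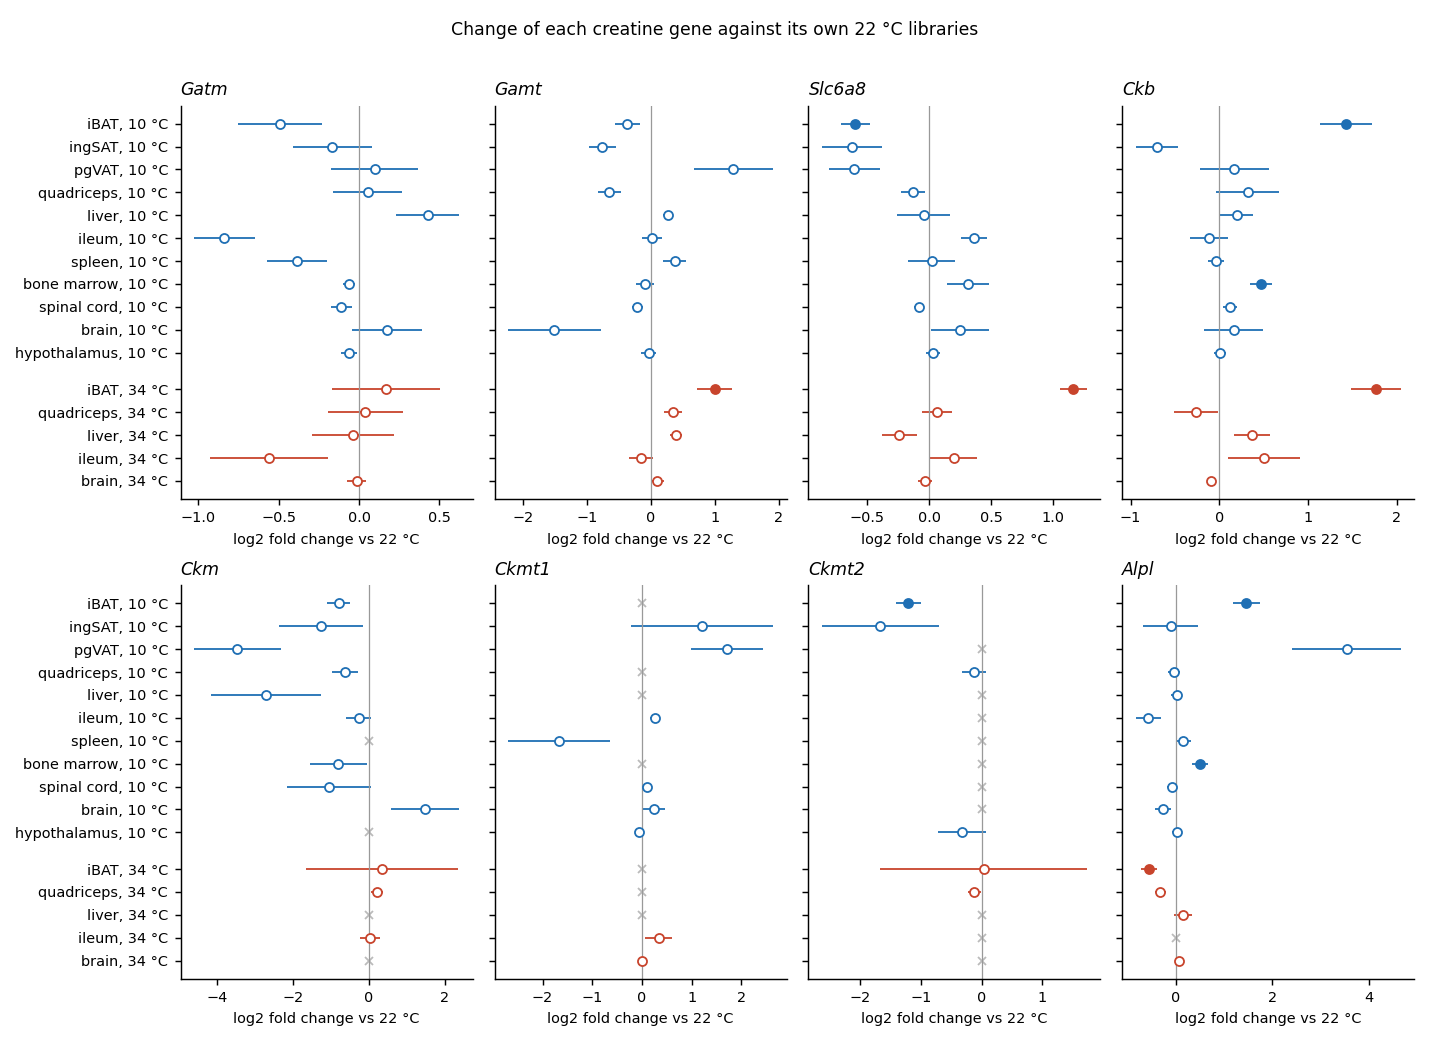
log2 fold change of each creatine gene at 10 °C (blue) or 34 °C (red) against its own 22 °C libraries, with its standard error, for 16 comparisons; filled points have an adjusted p under 0.05, open points do not, and grey crosses mark genes below the count filter. The filled points are 4 in iBAT at 10 °C, 2 in bone marrow at 10 °C and 4 in iBAT at 34 °C.

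In iBAT at 10 °C, Ckb and Alpl, the genes of the futile cycle, rose, and the transporter Slc6a8 and the muscle mitochondrial kinase Ckmt2 fell. Ckb held 46.2, 73.5 and 48.7 CPM in the 10 °C libraries and 15.3, 15.4 and 31.2 CPM in the 22 °C libraries. All 3 cold values lay above all control values, and 22 °C replicate 3 was the highest control. The change was 2.69-fold (log2 1.43, SE 0.29, adjusted p = 0.0164). Alpl held 49.3, 77.6 and 58.1 CPM at 10 °C and 18, 15.9 and 32.6 CPM at 22 °C. Its groups did not overlap either, its highest control was again replicate 3, and its highest cold library was again replicate 2. It rose 2.76-fold (log2 1.46, SE 0.27, adjusted p = 0.0113).

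Slc6a8, the creatine transporter, held 36.1, 30.8 and 31.3 CPM at 10 °C and 46.0, 54.5 and 48.4 CPM at 22 °C. The groups did not overlap, and the gene fell by 0.60 on the log2 scale (SE 0.12, adjusted p = 0.014). Ckmt2 held 45.5, 43.7 and 29.8 CPM at 10 °C and 119, 80.6 and 75.8 CPM at 22 °C. All cold libraries lay below all controls, and it fell by 1.21 (SE 0.21, adjusted p = 0.00919). Ckm held 806, 708 and 377 CPM at 10 °C and 1453, 1001 and 817 CPM at 22 °C, with 10 °C replicate 1 just under the lowest control. Its log2 fold change of -0.79 (SE 0.30) did not pass the adjusted threshold (adjusted p = 0.124). The synthesis genes did not pass either, with Gamt at 3.69 to 5.04 CPM against 5.12 to 6.48 CPM (log2 fold change -0.37, adjusted p = 0.267) and Gatm at 1.78 to 3.02 CPM against 2.74 to 3.90 CPM (-0.49, adjusted p = 0.261). Ckmt1 had no count in any of these 6 libraries.

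Skeletal muscle markers moved with these values. Of 12 muscle genes, 11 had a mean of at least 1 CPM in iBAT, 3 of 11 tested were called lower and none higher, and their summed level was 2778 to 5632 CPM at 10 °C against 7087 to 10042 CPM at 22 °C, without overlap. With the log2 of that sum as a covariate, an alternative chosen after the data were seen, Ckmt2 changed by -0.53 (adjusted p = 0.465) and Ckm by 0.21, while Ckb (1.46, adjusted p = 0.238), Alpl (1.43, adjusted p = 0.218) and Slc6a8 (-0.60, adjusted p = 0.361) kept their size. No member was called in that fit, in which calls over all genes went from 796 higher and 649 lower to 77 and 52. Because the marker sum did not overlap between temperatures, the fit cannot separate muscle content from temperature. Brown adipocyte markers also moved: all 7 were detected, 2 were called higher, and their sum was 14434 to 18176 CPM against 8304 to 13500 CPM. Their part in the rise of Ckb and Alpl was not tested. Epididymis markers summed to 2.78 to 31.8 CPM at 10 °C and at most 0.0779 CPM at 22 °C, with 3 of 6 detected and 2 called higher, and their part was not tested either.

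The calls depended on single libraries. Without 22 °C replicate 2, Ckb changed by 1.25 (adjusted p = 0.0784), Alpl by 1.27 (adjusted p = 0.0515) and Slc6a8 by -0.53 (adjusted p = 0.077), and only Ckmt2 kept its call, at -1.30 (adjusted p = 0.0288). Slc6a8 also lost its call without 10 °C replicate 3 (adjusted p = 0.0767). Without 22 °C replicate 3, Ckb changed by 1.87 (adjusted p = 0.00204) and Alpl by 1.86 (adjusted p = 0.00163).

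**Figure D4:**
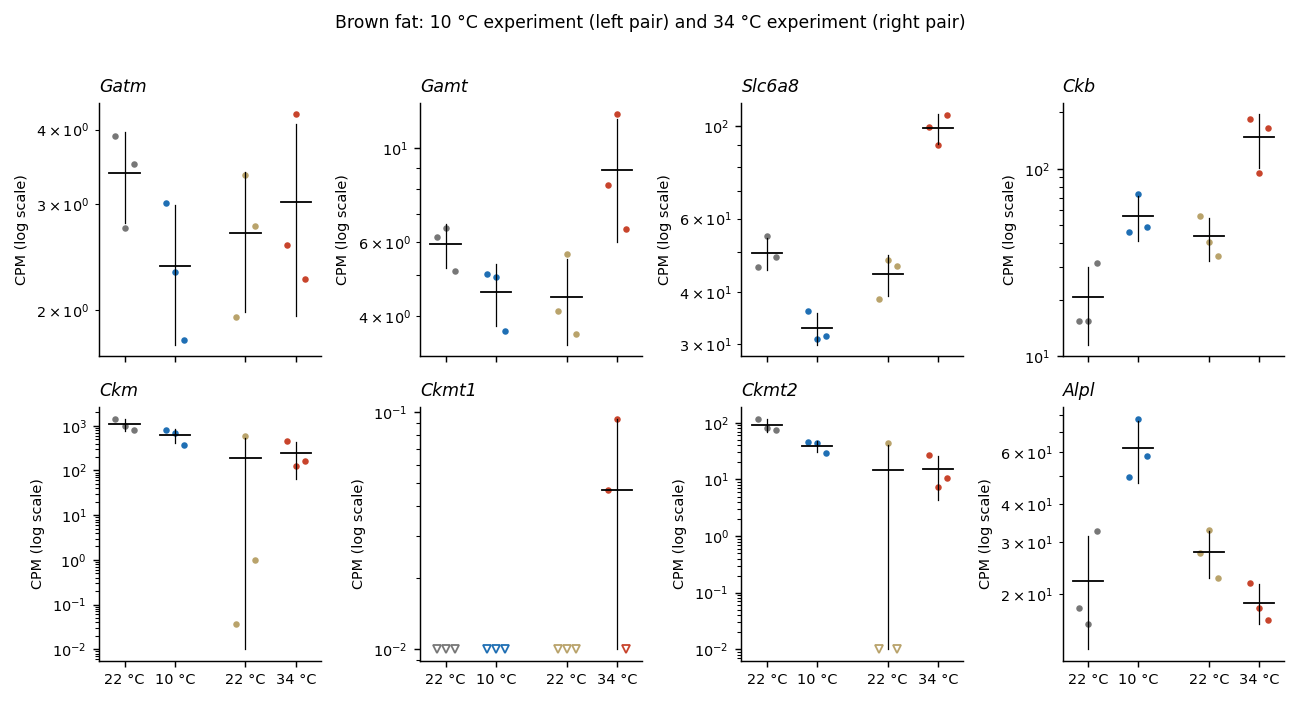
CPM (log scale) of the 8 creatine genes in iBAT libraries of the 10 °C experiment (grey 22 °C, blue 10 °C) and the 34 °C experiment (tan 22 °C, red 34 °C); black lines are mean and SD, with lower bars cut at 0.01 CPM, and open triangles are libraries with no count. Ckb lies above its controls at both temperatures, Slc6a8 below them at 10 °C and above them at 34 °C, and Alpl the reverse.

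In iBAT at 34 °C, Slc6a8, Ckb and Gamt rose and Alpl fell. Slc6a8 held 99.8, 90.2 and 106 CPM at 34 °C and 38.5, 47.8 and 46.1 CPM at 22 °C. The lowest warm library was well above the highest control, and the change was 2.24-fold (log2 1.16, SE 0.11, adjusted p = 0.00128). Ckb held 185, 94.5 and 166 CPM at 34 °C and 56.1, 40.6 and 34.1 CPM at 22 °C. The groups did not overlap, and replicate 2 was the lowest warm library. Ckb rose 3.404-fold (log2 1.77, SE 0.28, adjusted p = 0.00565).

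Gamt held 8.17, 12.1 and 6.44 CPM at 34 °C and 4.12, 5.61 and 3.64 CPM at 22 °C. The groups did not overlap, and the gene rose 1.995-fold (log2 0.997, SE 0.28, adjusted p = 0.0352). Alpl held 21.9, 18 and 16.4 CPM at 34 °C and 27.5, 32.8 and 22.7 CPM at 22 °C. The highest warm library was just below the lowest control, and Alpl fell by 0.56 (SE 0.17, adjusted p = 0.0411). Gatm, at 2.25 to 4.24 CPM against 1.95 to 3.35 CPM, overlapped (log2 fold change 0.17, adjusted p = 0.734). The calls of Gamt and Alpl depended on single libraries. Gamt lost its call without 22 °C replicates 1 or 3 or 34 °C replicates 1 or 2. Alpl lost it without any single library other than 22 °C replicate 3, and with scaling by library size alone. Their adjusted p over these settings reached 0.134 for Gamt, with the muscle covariate below, and 0.237 for Alpl.

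Ckm and Ckmt2 could not be read as a response to warmth, because their 22 °C libraries differed by orders of magnitude. Ckm held 0.0368, 582 and 0.985 CPM in 22 °C replicates 1, 2 and 3, and 461, 128 and 159 CPM at 34 °C. Ckmt2 had no count in 22 °C replicates 1 and 3 and 44.4 CPM in replicate 2, against 27.5, 7.34 and 10.7 CPM at 34 °C. The summed muscle marker level was 4.52, 6566 and 10.5 CPM in those 3 controls and 1452 to 5320 CPM at 34 °C, with all 12 genes detected and none called. The fitted changes were 0.36 for Ckm (SE 2.003) and 0.03 for Ckmt2 (SE 1.71). Without control replicate 2 both genes passed the threshold, with fitted log2 values of 8.78 and 12.12 against controls at or near 0 that give no usable fold. With the muscle covariate, Slc6a8 (1.07, adjusted p = 0.00456), Ckb (1.82, adjusted p = 0.0197) and Alpl (-0.76, adjusted p = 0.0217) kept their calls, and Gamt (0.79, adjusted p = 0.134) did not. Brown adipocyte markers moved here too: 4 of 7 were called lower, with sums of 5903 to 7310 CPM at 34 °C against 10974 to 14691 CPM. Endothelial markers summed to 940 to 1258 CPM against 693 to 888 CPM, and 3 of 6 were called higher. The part of either list in these changes was not tested.

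Across both experiments, Ckb was therefore higher than its controls in iBAT at 10 °C and at 34 °C. Slc6a8 and Gamt lay below their controls at 10 °C and above them at 34 °C, and Alpl lay above at 10 °C and below at 34 °C, in every library in each case. The difference between the 2 responses was not tested, because the experiments sit in separate tables made with different kits and mice of different vendors. On CPM scaled separately in each experiment, Alpl had 61.7 ± 14.5 CPM at 10 °C, 22.2 ± 9.1 and 27.6 ± 5.05 CPM in the 22 °C groups and 18.7 ± 2.83 CPM at 34 °C. Slc6a8 ran the other way, with 32.7 ± 2.9, 49.6 ± 4.38, 44.1 ± 4.94 and 98.8 ± 8.17 CPM. Ckb had 56.1 ± 15.1 CPM at 10 °C, 20.7 ± 9.17 and 43.6 ± 11.3 CPM at 22 °C and 148 ± 47.6 CPM at 34 °C.

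**Figure D5:**
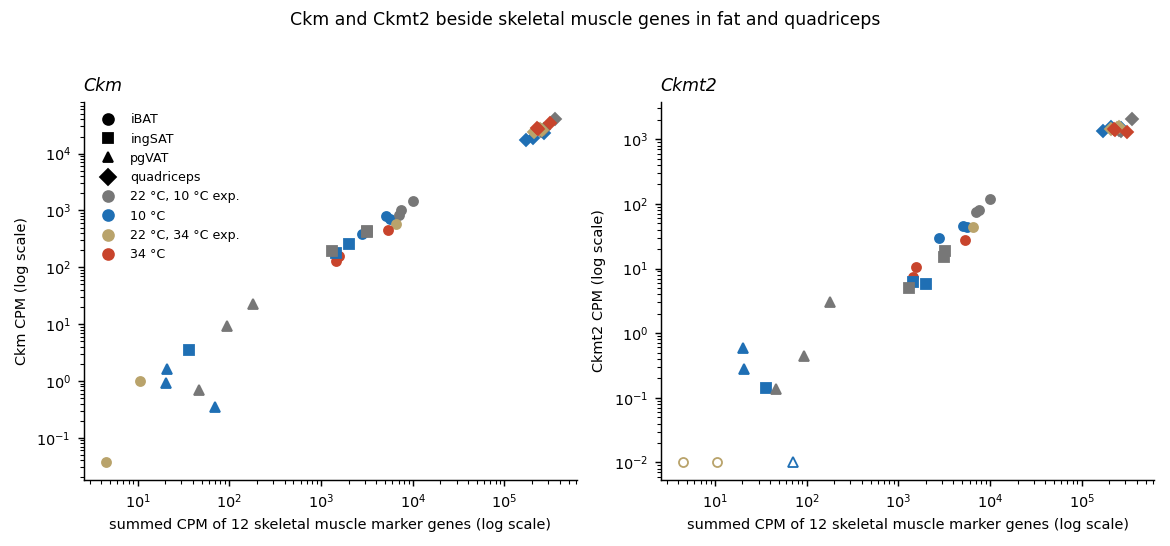
CPM of Ckm (left) and Ckmt2 (right) against the summed CPM of 12 skeletal muscle marker genes, both on log scales, in 36 libraries of fat (circles iBAT, squares ingSAT, triangles pgVAT) and quadriceps (diamonds); open symbols have no count and are drawn at 0.01. Fat libraries with few muscle transcripts have little Ckm and Ckmt2, whatever their temperature.

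Across the fat libraries, Ckm and Ckmt2 were high only in libraries with high muscle markers. In ingSAT, 10 °C replicate 2 had a muscle marker sum of 36.2 CPM, with 3.45 CPM of Ckm and 0.144 CPM of Ckmt2, while the other 5 libraries had sums of 1313 to 3202 CPM, with 181 to 432 CPM of Ckm and 4.94 to 18.9 CPM of Ckmt2. In iBAT control replicates 1 and 3 of the 34 °C experiment, where muscle markers summed to 4.52 and 10.5 CPM, Ckb was at 56.1 and 34.1 CPM. Ckb as a share of the kinases in iBAT, per kb, was 7.85% ± 2.65 at 10 °C and 1.79% ± 1.2 at 22 °C (n = 3 each). The groups did not overlap, and the exact permutation test gave p = 0.1, the smallest that 3 against 3 allow (0.129 adjusted over 9 comparisons). Ckmt2 fell relative to Ckm in the same libraries. Ckmt2 CPM per 1000 Ckm CPM was 65.7 ± 11.8 at 10 °C and 85.1 ± 6.67 at 22 °C. These groups did not overlap either, with the same exact permutation p = 0.1 (adjusted p = 0.129). The Ckb share also depends on Ckm, which made up 81.7% of the kinases at 10 °C and 84.2% at 22 °C. The 4 kinases summed to 263 and 443 CPM per kb. In the 34 °C experiment the Ckb share was 38.2% ± 10.9 at 34 °C and 67.6% ± 53.6 at 22 °C, although Ckb CPM rose. The part of muscle transcripts in these shares was not tested.

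Promoters are shown for Ckb and Alpl, which rose together in iBAT at 10 °C. Those of Ckm and Ckmt2, which were high only in fat libraries with high muscle markers, are shown beside them. Each is the 250 bases before a start (RefSeq, GRCm38.p6, 5′ to 3′ on the gene's strand). RefSeq entries matched 7 of the 8 members. Capitals mark matches, on either strand, to TATAAA (in 12.4% of 32851 promoters of the same length), CCAAT (33.8%), the E-box CANNTG (66.2%) and the GC-box GGGCGG (32.7%).
Ckb, chr12:111672339-111672588, minus strand: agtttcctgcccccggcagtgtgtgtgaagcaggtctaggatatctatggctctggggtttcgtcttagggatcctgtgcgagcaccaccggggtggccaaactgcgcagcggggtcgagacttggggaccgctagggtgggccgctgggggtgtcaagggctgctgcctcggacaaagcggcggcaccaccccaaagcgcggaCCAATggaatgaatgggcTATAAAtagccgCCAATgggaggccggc
Alpl, upstream start, chr4:137796385-137796634, minus strand: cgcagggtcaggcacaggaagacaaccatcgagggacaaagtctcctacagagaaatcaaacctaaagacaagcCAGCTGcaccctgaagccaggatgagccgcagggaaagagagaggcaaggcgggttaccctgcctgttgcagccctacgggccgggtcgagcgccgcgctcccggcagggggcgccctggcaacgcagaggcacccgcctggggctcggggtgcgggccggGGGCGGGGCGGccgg
Alpl, downstream start, chr4:137766476-137766725, minus strand: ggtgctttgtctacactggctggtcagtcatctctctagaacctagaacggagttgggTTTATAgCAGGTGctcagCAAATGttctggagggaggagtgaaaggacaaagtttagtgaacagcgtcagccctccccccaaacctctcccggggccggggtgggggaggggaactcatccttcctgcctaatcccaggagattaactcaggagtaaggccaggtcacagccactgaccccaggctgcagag
Ckm, chr7:19410844-19411093, plus strand: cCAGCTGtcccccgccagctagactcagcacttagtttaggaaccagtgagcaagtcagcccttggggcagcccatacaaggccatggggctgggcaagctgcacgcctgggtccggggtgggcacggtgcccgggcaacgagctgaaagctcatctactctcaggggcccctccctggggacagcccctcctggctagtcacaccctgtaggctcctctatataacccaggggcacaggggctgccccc
Ckmt2, chr13:91876886-91877135, minus strand: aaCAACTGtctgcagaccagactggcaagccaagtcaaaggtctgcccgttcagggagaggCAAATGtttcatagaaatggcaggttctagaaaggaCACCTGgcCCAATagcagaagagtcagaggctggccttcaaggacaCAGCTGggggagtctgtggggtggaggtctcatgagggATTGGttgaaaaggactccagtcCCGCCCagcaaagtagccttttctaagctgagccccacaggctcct
Ckb has a TATAAA match 28 bases before its start, between CCAAT matches at 46 and 16 bases, and no E-box in this window. The upstream Alpl promoter holds 1 E-box and 2 overlapping GC-boxes. The downstream one holds a TATAAA match 192 bases before the start and 2 E-boxes. Ckmt2 has 4 E-boxes, 2 CCAAT matches and 1 GC-box, and Ckm has 1 E-box, 249 bases before the start. None of the 4 motifs was found in all 3 windows of Ckb and Alpl. Reads counted per gene do not say which Alpl start was used. The Ckm window lies within the GENCODE span of Ckm given above, downstream of its GENCODE start.

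In bone marrow at 10 °C, with 6 single mice per temperature, Ckb and Alpl again rose. Ckb had a lowest, median and highest level of 14.2, 15.97 and 17.1 CPM at 10 °C and 7.16, 11.8 and 13.9 CPM at 22 °C. All 6 cold mice lay above all 6 controls, and the change was 1.38-fold (log2 0.47, SE 0.12, adjusted p = 0.0164). Alpl had 6.32, 7.29 and 8.08 CPM at 10 °C and 3.83, 4.45 and 8.58 CPM at 22 °C. Its groups overlapped through a single control, replicate 3, which held the highest value of all 12 mice, and the change was 1.41-fold (log2 0.50, SE 0.16, adjusted p = 0.0474). Without that control it was 0.70 (adjusted p = 0.000598). The call was lost, with an adjusted p of at most 0.1004, when any other mouse was left out and with scaling by library size or by DESeq2's size factors. Cell type markers shifted at the same time. All 8 neutrophil genes were called lower, with sums of 36928 to 39482 CPM at 10 °C against 39968 to 59408 CPM. Red cell precursor genes (4 of 5 called higher) and B cell genes (4 of 5 called higher) rose. Osteoblast genes overlapped, at 122 to 161 CPM against 98.6 to 168 CPM, with 4 of 6 detected and none called. The part of these shifts in the Ckb and Alpl changes was not tested. Gatm, the highest member per kb in this tissue, held 68.8 to 73.0 CPM at 10 °C and 69.4 to 78.7 CPM at 22 °C (adjusted p = 0.267), and Ckmt1 had no count in any of the 12 mice.

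In ingSAT at 10 °C, Gamt, Ckb and Slc6a8 were all lower in the mean, but none passed the adjusted threshold. Gamt held 14.2, 9.49 and 11.0 CPM at 10 °C and 18.9, 23.5 and 16.3 CPM at 22 °C. These groups did not overlap (log2 fold change -0.76, SE 0.22, adjusted p = 0.0774), and edgeR's exact test and DESeq2 called the gene. Ckb held 30.5, 18.8 and 22.8 CPM against 40.3, 47.8 and 29.2 CPM (-0.70, adjusted p = 0.117), and Slc6a8 held 26.3, 15.03 and 17.3 CPM against 33.9, 32.6 and 23.9 CPM (-0.62, adjusted p = 0.155). For both genes, 10 °C replicate 1 overlapped 22 °C replicate 3. All 7 brown adipocyte markers were called higher in the same libraries, with sums of 2379 to 3051 CPM against 155 to 212 CPM. Alpl was at 2.66 to 5.25 CPM against 1.38 to 7.16 CPM (-0.11, adjusted p = 0.911). Without 10 °C replicate 2, the library with few muscle markers, Gamt changed by -0.60, Ckb by -0.52 and Slc6a8 by -0.43. With the muscle covariate, Gamt changed by -0.58, Ckb by -0.46 and Slc6a8 by -0.39. None of these was called.

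In pgVAT, Alpl held 37.1, 5.97 and 193 CPM at 10 °C against 5.31, 5.95 and 9.32 CPM at 22 °C, and Gamt held 54.5, 17.2 and 119 CPM against 26.02, 31.4 and 20.4 CPM. The high values of both genes lay in replicates 1 and 3, the libraries with most epididymis markers. The fitted changes were 3.54 for Alpl (adjusted p = 0.593) and 1.29 for Gamt (adjusted p = 0.595). Without both libraries, an alternative added after the data were seen, the fitted values were -0.16 and -0.57. That fit sets 1 library at 10 °C against 3 controls and takes the spread from the controls, so its values are a description. The controls also held more epididymis markers than this cold library. Slc6a8 held 17.98, 19.7 and 24.1 CPM at 10 °C against 32.3, 30.3 and 31.2 CPM, without overlap (-0.60, unadjusted p = 0.0231, adjusted p = 0.593), and it was -0.65 in the fit with 1 cold library. Slc6a8 thus had log2 fold changes of -0.60, -0.62 and -0.60 in iBAT, ingSAT and pgVAT, of which that in iBAT was called. The ingSAT value was -0.43 without 10 °C replicate 2.

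The difference of the cold response between depots was tested in one fit of the 18 fat libraries. No member was called for any pair of depots, where 0.0691% (iBAT and ingSAT), 0.407% (iBAT and pgVAT) and 0.159% (ingSAT and pgVAT) of all genes were. Of 22 differences, 5 had an unadjusted p under 0.05 and DESeq2 called 3. The Ckb response was 2.15 higher on the log2 scale in iBAT than in ingSAT (SE 0.52, unadjusted p = 0.000834, adjusted p = 0.121). With only iBAT and ingSAT libraries in the fit, chosen after the data were seen, it was 2.11 (adjusted p = 0.0258), and without the 2 pgVAT libraries it was 2.08 (adjusted p = 0.0264). The Slc6a8 response differed by 0.04 between iBAT and ingSAT (SE 0.27) and by 0.03 between iBAT and pgVAT (SE 0.27).

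In quadriceps, the 22 °C libraries were divided between the experiments by their column headers. Scaling by library size alone moved the median log2 fold change of all genes at 10 °C from 0.02 to 0.25. Ckm, the kinase gene with most CPM per kb there, held 19181, 17437 and 23231 CPM at 10 °C and 40639, 24775 and 26973 CPM at 22 °C. All cold libraries lay below the controls, of which replicate 1 was far above the other 2, and the log2 fold change was -0.63 (SE 0.33, adjusted p = 0.496). At 34 °C Ckm held 28099.6, 34589 and 26762 CPM against 24233, 27109.9 and 25847 CPM, which overlapped (0.21, adjusted p = 0.9999). Ckmt2 overlapped at 10 °C, at 1334 to 1549 CPM against 1337 to 2058 CPM (-0.13, adjusted p = 0.798). At 34 °C it held 1307 to 1417 CPM against 1439 to 1538 CPM, without overlap (-0.12, adjusted p = 0.9999).

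The ratio of the 2 muscle kinases lay above its controls at 10 °C and below them at 34 °C. Ckmt2 CPM per 1000 Ckm CPM was 73.7 ± 8.77 at 10 °C and 52.0 ± 3.34 at 22 °C, and it was 46.8 ± 7.91 at 34 °C and 58.2 ± 2.25 at 22 °C (SD, n = 3 each). Neither pair of groups overlapped, and each exact permutation test gave p = 0.1, the smallest that 3 against 3 can give (adjusted p = 0.129 over 9 comparisons). The 34 °C result depended on which controls were used: the 34 °C libraries, at 37.8 to 52.3, overlapped the controls of the 10 °C experiment, at 49.6 to 55.8, whereas the 10 °C libraries, at 63.9 to 80.8, lay above both sets of controls. Per 1000 CPM of muscle markers, Ckmt2 was at 5.49 to 7.81 CPM at 10 °C against 4.998 to 5.82 CPM. At 34 °C it was at 4.19 to 6.29 against 6.07 to 6.87 CPM. Ckm was at 85.9 to 102.2 against 97.99 to 115 CPM at 10 °C. Its 34 °C values were 110.9 to 124.6 against 101.97 to 115.7 CPM. The marker sum was 170654 to 270353 CPM at 10 °C against 252837 to 353369 CPM. Each of these pairs overlapped, and the part of muscle content in the ratio was not tested. Gamt was below its controls at 10 °C and above them at 34 °C. It held 8.41, 6.52 and 7.71 CPM at 10 °C against 14.8, 10.8 and 10.0 CPM (-0.65, unadjusted p = 0.00697, adjusted p = 0.393), and 13.6, 14.6 and 10.7 CPM at 34 °C against 10.4, 10.6 and 9.55 CPM (0.35, unadjusted p = 0.0326, adjusted p = 0.9999). Exposed and control libraries did not overlap at either temperature. In the joint fit of the 12 libraries the Gamt responses differed by -1.01 (SE 0.24, unadjusted p = 0.00108, adjusted p = 0.113), those of Ckm by -0.85 (SE 0.31, unadjusted p = 0.0192, adjusted p = 0.316), and no member was called, against 0.482% of all genes. Of 7 members, 2 had an unadjusted p under 0.05, and DESeq2 called Gamt (adjusted p = 0.00907). At 10 °C the log2 fold changes of Slc6a8, Alpl and Gatm were -0.13, -0.04 and 0.05. Against the other 3 quadriceps controls, those of Gamt were -0.41 at 10 °C and 0.10 at 34 °C, and those of Ckm were -0.35 and -0.07, none of them called. The sign of Ckm at 34 °C thus changed with the controls.

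In liver, the tissue with most Gamt, every exposed library lay above its 22 °C controls at both temperatures, without passing the adjusted threshold. At 10 °C Gamt was at 138, 138 and 136 CPM against 113, 109.6 and 121 CPM, without overlap (log2 fold change 0.26, SE 0.07, adjusted p = 0.126). At 34 °C it was at 225, 217 and 257 CPM against 175, 179 and 178 CPM, again without overlap (0.39, SE 0.09, adjusted p = 0.152), and DESeq2 called it (adjusted p = 0.0136). Summed hepatocyte markers moved with it, at 86251 to 90065 CPM against 62531 to 69025 CPM and at 132461 to 140516 CPM against 92589.6 to 106884 CPM, with all 6 detected and none called. Their part in the Gamt values was not tested.

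In ileum, Slc6a8 held 552, 492 and 510 CPM at 10 °C against 360.1, 390.2 and 459.95 CPM at 22 °C, and Ckmt1 held 604, 607 and 504 CPM against 481, 483 and 471 CPM. Neither pair overlapped, with log2 fold changes of 0.36 (adjusted p = 0.171) and 0.26 (adjusted p = 0.225), and DESeq2 called Slc6a8 (adjusted p = 0.0209). Gatm was lower, at 3.71, 3.37 and 4.26 CPM against 5.36, 6.91 and 7.95 CPM (-0.84, SE 0.19, adjusted p = 0.123). Enterocyte markers were at 12672 to 12750.01 CPM against 8251 to 8792 CPM, with all 6 detected and 1 called higher. At 34 °C, replicate 2 had 1548 CPM of Ckmt1 and 169 CPM of Ckb, above the 5 other libraries of that comparison, and it had the highest enterocyte sum, 25161 CPM. Slc6a8 held 834 to 1379 CPM there against 885 to 1027 CPM (0.20, adjusted p = 0.705).

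In the nervous system no member passed the test. In hypothalamus Ckb had 664 to 761 CPM at 10 °C against 621 to 748 CPM, and Ckmt1 193 to 220 CPM against 204 to 233 CPM. In spinal cord Ckb had 1288 to 1632 CPM against 1180.0 to 1449 CPM (0.12, adjusted p = 0.78), and Gatm had 265 to 341 CPM against 325 to 362 CPM (-0.11, adjusted p = 0.78). In brain at 34 °C Ckb was at 1233 to 1304 CPM against 1340.03 to 1391 CPM (-0.09, adjusted p = 0.9997). In brain at 10 °C the result depended on control replicate 2, which carried liver transcripts: the Gamt change was -1.51 with it and -0.25 without it, and that of Ckb was 0.16 with it and -0.13 without it, none of them called. In spleen, Ckb held 45.9 to 53.9 CPM at 10 °C and 49.3 to 53.5 CPM at 22 °C.

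Genes that supply or surround creatine metabolism were read from fixed lists. Of 10 genes for arginine and glycine supply, 8 were tested in iBAT at 10 °C, with 1 called higher and 1 lower, where 6.22% of all genes were higher and 5.07% lower. Psph, which makes serine, rose 2.02-fold, from 30.9 ± 7.28 to 62.0 ± 4.23 CPM (adjusted p = 0.0073), and Ass1, which makes argininosuccinate, was at 0.527 ± 0.0755 CPM against 1.83 ± 0.547 CPM (adjusted p = 0.0125). At 34 °C, 7 were tested, with 3 higher and 1 lower, where 13.5% of all genes were higher and 15.4% lower. Phgdh, the first enzyme of serine synthesis, rose 5.78-fold, from 11.7 ± 4.77 to 67.4 ± 4.8 CPM, while Psph fell from 37.9 ± 3.9 to 17.5 ± 0.952 CPM. Psph was therefore higher at 10 °C and lower at 34 °C. In ingSAT at 10 °C, 1 of 10 tested was higher and 2 were lower, where 7.51% of all genes were called, among them Phgdh (51.8 ± 12.1 to 23.5 ± 6.95 CPM) and Oat (172 ± 5.34 to 87.2 ± 20.1 CPM).

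Of 8 methyl donor genes, 7 were tested in iBAT at 10 °C, with 3 lower (5.07% of all genes) and none higher (6.22%). Mat1a, a methionine adenosyltransferase, had no count at 10 °C and 1.402 to 2.46 CPM at 22 °C, at least 10.7-fold lower against a floor of 3 counts in the shallowest library. Mat2a, the form used outside the liver, fell from 189 ± 26.4 to 127 ± 14.9 CPM (adjusted p = 0.0345). At 34 °C, 1 of 6 tested was higher and 1 lower, where 28.9% of all genes were called. Mtr, methionine synthase, rose 1.60-fold, and Gnmt fell from 2.7 ± 0.714 to 1.02 ± 0.269 CPM. Of 9 genes for other phosphotransfer and nucleotide exchange, all tested in iBAT, 1 was called at 10 °C (11.3% of all genes) and none at 34 °C (28.9%). Ak4, a mitochondrial adenylate kinase, was the one called, with a 5.99-fold rise from 2.65 ± 0.281 to 15.8 ± 2.23 CPM (adjusted p = 0.000194). In ingSAT 2 of the 9 rose, where 7.51% of all genes were called: the porin Vdac3 (1.52-fold) and the ADP/ATP carrier Slc25a5 (1.51-fold).

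Of 7 genes for other phosphatases and phosphate handling, 5 were tested in iBAT at 10 °C and none was called (11.3% of all genes). At 34 °C, 4 were tested, with 2 higher (13.5% of all genes) and 1 lower (15.4%). Phospho1, a phosphatase of phosphocholine, fell from 558 ± 46.3 to 371 ± 51.5 CPM (adjusted p = 0.0152), in the same direction as Alpl, and the phosphate transporter Slc20a1 rose 1.46-fold. In ingSAT at 10 °C, 2 of 5 tested were called, where 7.51% of all genes were: Phospho1 rose from 0.473 ± 0.206 to 1.74 ± 0.299 CPM and the pyrophosphate transporter Ank rose 1.80-fold. In bone marrow, where 19% of all genes were called, 2 of 5 tested were higher, Ank (1.32-fold) and Slc20a1 (1.15-fold). Of 8 arginine and glycine supply genes tested there, 1 was higher (Psph, 1.17-fold) and 2 were lower. Among the lower, Arg2 fell to 0.701 of the control level. The single gene for other creatine transport, Slc16a12, was tested in iBAT at 10 °C and was not called. In the other tissues, no gene of these lists was called.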

How the data were processed

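Gene counts were deposited by the authors in 4 tables of raw counts per gene. Reads had been aligned to mm10, and the submitters' processing notes name STAR 2.5.3a, Picard 1.141 and HTSeq 0.6p1. Stranded TruSeq kits were used for bone marrow, spinal cord and the 34 °C experiment (study's methods) and for quadriceps (labels), and NEBNext Ultra kits for the other tissues. Of 21647 identifiers in the 8-tissue table, 21583 matched a symbol. Depth ran from 4262403 to 62880248 counts, and low counts limit the precision of members below 1 CPM.

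Each exposed group was compared with its own 22 °C libraries in edgeR 4.0.16 (R 4.3.3) with TMM scaling and the quasi-likelihood test, on genes with an average log2 CPM above 0, with Benjamini-Hochberg adjustment over all genes tested. Differences of effects were tested as interaction terms. Ratios were tested by two-sided exact permutation. Scripts were tested on simulated data. DESeq2 1.42.0, other scalings and filters, left-out libraries and a replicate block were alternatives. Nothing in the labels says that replicates are more than separate samples, so p-values measure the spread between these libraries. The members and lists were chosen with earlier results of these data known. By rule, the 8 members were named, with the 3 genes most like each (among genes reaching 10 CPM in a tissue) and up to 2 called genes with the largest change from each pathway list and comparison. One pathway gene is not reported here. ingSAT and pgVAT at 34 °C were not analysed here.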

Additional observations from a re-analysis of the deposited data

Results flagged for a closer look

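Of 38 groups of 4 to 10 libraries, 7 held a library whose gap to the others exceeded Dixon's 95% limit, and chance gives about 1 in 20. In bone marrow, Alpl reached 8.58 CPM in a 22 °C mouse against 3.83 to 5.45 CPM in the others, and Ckm reached 11.5 CPM in a 10 °C mouse against 0.0496 to 2.36 CPM. Over all 6 quadriceps 22 °C libraries, scaled by library size, Ckm reached 33275 CPM against 24764 to 27389 CPM, Ckmt1 reached 0.195 CPM against 0 to 0.0194 CPM, and Slc6a8 had a lowest value of 114 CPM against 140.4 to 156 CPM. In spinal cord at 10 °C, Ckmt1 reached 517 CPM against 391 to 415 CPM, and Gamt had a lowest value of 12.9 CPM against 16.2 to 17.1 CPM.

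In iBAT, 3 genes moved one way in every 10 °C library and the other way in every 34 °C library. On the log2 scale, Gamt differed by -0.37 at 10 °C and 0.997 at 34 °C, Slc6a8 by -0.60 and 1.16, and Alpl by 1.46 and -0.56. The difference was not tested, and the change of Gamt at 10 °C did not pass the adjusted threshold.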

How the results depend on the processing

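At 10 °C, 6 creatine gene and tissue pairs were called. DESeq2 called 10, adding Ckm in iBAT, Gamt in ingSAT, Alpl in pgVAT and Slc6a8 in ileum, and the limits the study used called 13. With the muscle marker level as a covariate, chosen after seeing the data, 2 were called, both in bone marrow. In iBAT that level did not overlap between temperatures, so the fit cannot separate the 2. Calls over all iBAT genes fell from 796 higher and 649 lower to 77 and 52 in it. Ckb, Alpl and Slc6a8 kept the size of their changes. Leaving out a single library gave 3 to 8 calls, with 3 without iBAT 22 °C replicate 2. At 34 °C, 4 were called, and leaving out a single library gave 2 to 5, with 2 without iBAT 22 °C replicate 1, 34 °C replicate 1 or 34 °C replicate 2. For differences between fat depots, none was called. DESeq2 called 3, leaving out a single library gave 0 to 4 (4 without pgVAT 10 °C replicate 2), and 1 was called either with iBAT and ingSAT libraries alone or without 2 pgVAT libraries, both chosen after seeing the data. For the quadriceps difference, DESeq2 called 1 against 0, and leaving out a single library gave 0. Of 8 highest tissues at 22 °C, 7 to 8 stayed when a library was left out. The cause of these changes was not tested.

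The replicate numbers were not taken as pairs, since in no tissue did every pair correlate above 0.1 (lowest -0.689, highest 0.429). With so few pairs per tissue, this check cannot exclude pairing. With a replicate block, 7 gene and tissue pairs were called at 10 °C and 0 between depots. Over all genes, the block gave more calls in some tissues and fewer in others. In iBAT 948 were higher and 944 lower, against 796 and 649 without it. In ingSAT 315 were higher and 137 lower, against 644 and 406. In quadriceps and the 34 °C experiment the sample labels give no shared numbers and the column headers number each group from 1 to 3 without a tie to a sample, so no block was fitted there. Among single values, 1984 planned and 49 added alternatives kept direction and side of the threshold, 22 and 2 crossed to a call, and 27 and 5 lost one. No called value reversed. Pools of 2 mice, 3 libraries per group, and markers of other cell types that differ between libraries limit the fat results.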
